A study of Mus musculus with 2 samples.

Results

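The genes described here are 10 members of the Hippo pathway and its output in 4T1, a line of mouse mammary carcinoma cells: the coactivator genes Yap1 and Wwtr1, the DNA-binding partners Tead1 and Tead2, the inhibitory kinases Lats1 and Lats2, and the target genes Amotl2, Ankrd1, Cyr61 and Ctgf. They were chosen by name from the 51912 rows with Ensembl identifiers, and all 10 were found and detected, that is, their mean over both libraries was at least 1 TPM (a level corrected for transcript length and scaled to the same total in each library). The present names of Cyr61 and Ctgf are Ccn1 and Ccn2. RNA sequencing was done on 4T1 cells grown as a control and on 4T1 cells that sat below M2 macrophages in a transwell for 3 days. Each group had 1 library, so the values have no replicate error, no test between groups was possible, and each difference is one between these 2 libraries. The labels give neither the origin of the macrophages nor whether the control wells held an empty insert, and the co-culture library is titled 4T2 while its treatment label names 4T1.

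In the Hippo pathway the kinases MST1 and MST2 (genes Stk4 and Stk3), with the scaffold SAV1, activate the kinases LATS1 and LATS2. These phosphorylate the coactivators YAP (Yap1) and TAZ (Wwtr1), which are then held in the cytoplasm or degraded. Unphosphorylated YAP and TAZ enter the nucleus, bind TEAD factors and switch on genes such as Cyr61, Ctgf and Ankrd1. Lats2 and Amotl2 are themselves targets whose products restrain YAP and TAZ. Most of this control acts on protein, which messenger RNA levels do not report.

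TEAD factors recognise the sequence GGAATG, and because these genes are either the factors' targets or part of their own circuit, the promoters were read for it on both strands. RefSeq promoter windows of GRCm38.p6, from 250 bases before to 50 bases after the transcript start, were matched for 8 of the 10 genes, all except Tead1 and Ctgf. GGAATG was present in a window of 6 of these 8 genes, against 16.6% of the 27025 genes in the table. By window, 7 of 10 held it, against 14.7% of all 32851 windows of that length. The windows of Wwtr1 overlap and hold the same match, so that match is counted more than once among the 7. Tead2 and Lats1 had no match in their windows. Each match is shown 5′ to 3′ on the strand that reads GGAATG, with these letters in capitals and 12 bases on either side.
Wwtr1, chr3:57576029-57576058, minus strand: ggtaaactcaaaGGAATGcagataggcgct
Cyr61, chr3:145650071-145650100, plus strand: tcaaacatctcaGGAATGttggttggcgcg
Yap1, chr9:8004720-8004749, minus strand: cgggagtctgcaGGAATGtagcgacgcgca
Amotl2, chr9:102717727-102717756, minus strand: gctgctatgccaGGAATGtgagagtttcag
Lats2, chr14:57746102-57746131, minus strand: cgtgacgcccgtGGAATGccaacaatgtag
Ankrd1 distal, chr19:36120037-36120066, minus strand: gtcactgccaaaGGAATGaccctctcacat
Ankrd1 proximal, chr19:36119950-36119979, minus strand: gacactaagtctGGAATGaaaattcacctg

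Ankrd1 was the only one of these genes with 2 matches in a window, which 1.36% of all windows had. Positions were counted from the RefSeq transcript start along the gene's strand, which for Cyr61 and Amotl2 is opposite to the strand shown. The first base of the match on the gene's strand lay at -210 and -123 in Ankrd1, -103 in Cyr61 and -65 in Amotl2. It lay at -136 in Wwtr1 (from the nearer of its starts, at 57575910), -141 in Yap1 and 5 in Lats2. In the GENCODE M21 annotation the stretches of Wwtr1, Cyr61 and Yap1 lie between genes. Those of Amotl2, Lats2 and Ankrd1 lie in untranslated exon sequence annotated to the same genes, and the Lats2 stretch also lies in an exon of the overlapping gene Gm49361. No window held TGANTCA, the site of the AP-1 factors that often bind beside TEAD, which 7.81% of all windows held. A match of letters is a description and not a measured binding site.

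The Cyr61 window is shown further because Cyr61 had the largest log2 ratio of the 10 genes. Its 250 bases before the transcript start, on the gene's strand (minus) with the match read in reverse as CATTCC in capitals, hold no annotated exon.
Cyr61 upstream, chr3:145649986-145650235: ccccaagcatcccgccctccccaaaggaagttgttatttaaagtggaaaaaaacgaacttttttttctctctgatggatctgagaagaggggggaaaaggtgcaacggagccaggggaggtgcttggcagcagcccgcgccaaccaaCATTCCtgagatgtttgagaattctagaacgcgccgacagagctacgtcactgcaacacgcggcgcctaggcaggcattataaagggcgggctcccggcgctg

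None of the 10 genes differed by 2-fold between the libraries, while 7.09% of the 11258 detected genes did, 4.95% with a higher and 2.14% with a lower value in co-culture. Changes are given as the log2 ratio of co-culture to control on TPM + 1, a scale that understates the change of low genes. Of the 10 genes 9 had a higher value in co-culture and Amotl2 a lower one, against 64.5% of all detected genes with a higher value. The median log2 ratio of the 10 was 0.43, and that of all detected genes was 0.17, so most of the table leaned toward co-culture. At 1.5-fold, 3 of the 10 (Cyr61, Tead1 and Yap1) were higher and none was lower, against 18.6% and 6.37% of detected genes. Lats1 and Lats2, each at 1.55 times the control in TPM itself, lay just below that line on the TPM + 1 scale. The 2-fold differences over all detected genes were 557 higher and 241 lower, so 69.8% were higher. That share was 58.1% after co-culture values were divided by the median ratio of abundant genes and 45.9% with a TMM factor (a trimmed mean of the ratios), which brought the median log2 ratio of all detected genes to 0.06 and -0.03. With the TMM factor 7 of the 10 genes had higher values. The 64.5% is for TPM as deposited, and the matching share of all detected genes with the TMM factor was not computed.

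**Figure D1:**
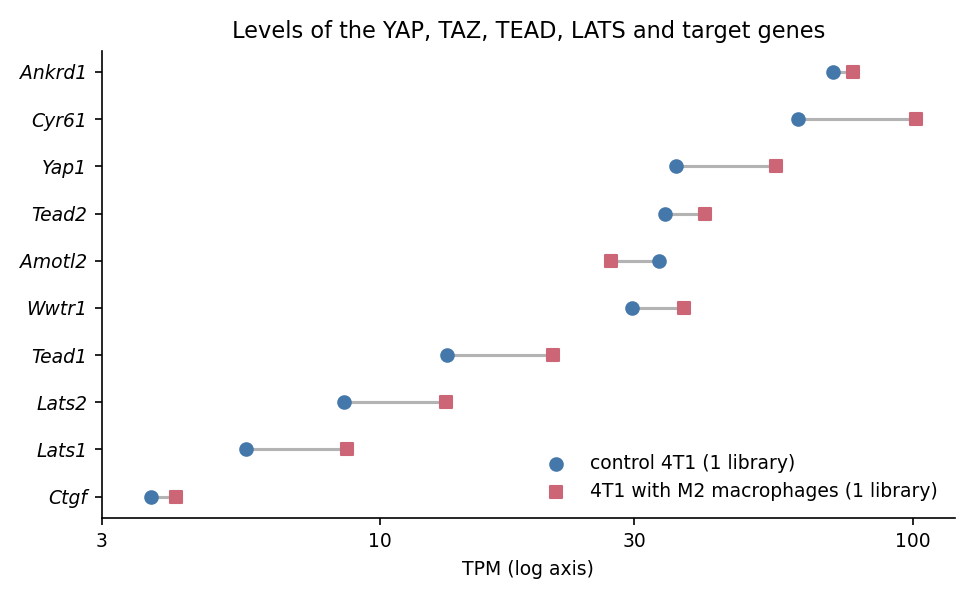
TPM (horizontal, log axis) of each of the 10 genes in the control library (circles) and in the library of 4T1 cells grown with M2 macrophages (squares), 1 library per group. Cyr61 passes Ankrd1 as the highest, Ctgf is the lowest in both at 3.71 and 4.13 TPM, and only Amotl2 lies lower in co-culture.

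The coactivator genes were both expressed at similar levels, and Yap1 differed more than Wwtr1. Yap1 (ENSMUSG00000053110, chromosome 9, 7931999 to 8004596, GRCm38) had 35.9 TPM in control cells and 55.2 TPM with macrophages, a log2 ratio of 0.61. Wwtr1, which encodes TAZ (ENSMUSG00000027803, chromosome 3, 57455649 to 57575910), had 29.7 TPM and 37.1 TPM, a log2 ratio of 0.31. Of all detected genes 82.5% had a lower ratio than Yap1 and 62.5% a lower ratio than Wwtr1. The sum of both was 65.5 TPM in control cells and 92.4 TPM with macrophages, and Yap1 made up 54.7% and 59.8% of it. Yap1 thus stood above Wwtr1 in both libraries, by 1.21 times in the control and 1.49 times in co-culture.

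Among the DNA-binding partners Tead2 was the most abundant, and Tead1 had the largest ratio with TPM as deposited. Tead1 (ENSMUSG00000055320, chromosome 7, 112679318 to 112906807) had 13.4 TPM in control cells and 21.1 TPM with macrophages, a log2 ratio of 0.62. Tead2 (ENSMUSG00000030796, chromosome 7, 45215753 to 45233644) had 34.2 TPM and 40.7 TPM, a log2 ratio of 0.24. The gene Cd37 overlaps Tead2 on the opposite strand and was at 0.15 TPM and 0.04 TPM. The other TEAD genes were Tead4, at 11.4 TPM and 15.0 TPM, and Tead3, at 4.27 TPM and 4.33 TPM. All TEAD genes together had 63.3 TPM in control cells and 81.1 TPM with macrophages, 1.28 times as much. Tead2 supplied 54.1% of the control sum and 50.1% of the co-culture sum, and Tead1 supplied 21.1% and 26.0%. RSEM, named in the submitters' processing notes, divides reads that fit several genes between them, which can touch such paralogs.

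The LATS kinase genes, which encode the enzymes that inactivate YAP and TAZ, stood lower than Yap1, Wwtr1, Tead1 and Tead2 and had log2 ratios that differed by 0.03. Lats1 (ENSMUSG00000040021, chromosome 10, 7681214 to 7716460) had 5.59 TPM in control cells and 8.65 TPM with macrophages, a log2 ratio of 0.55. Lats2 (ENSMUSG00000021959, chromosome 14, 57689662 to 57758388) had 8.56 TPM and 13.3 TPM, a log2 ratio of 0.58. Lats2 exceeded Lats1 by 1.53 times in the control and 1.54 times in co-culture. The summed LATS level was 1.55 times as high in co-culture, and the summed level of Yap1 and Wwtr1 was 1.41 times as high. The genes of the inhibitors and those of their substrates therefore both had higher values in co-culture. Lats2 also shares its span and strand with Gm49361, which has no row among the deposited Ensembl values. Whether reads of Gm49361 are counted in Lats2 is therefore unknown.

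**Figure D2:**
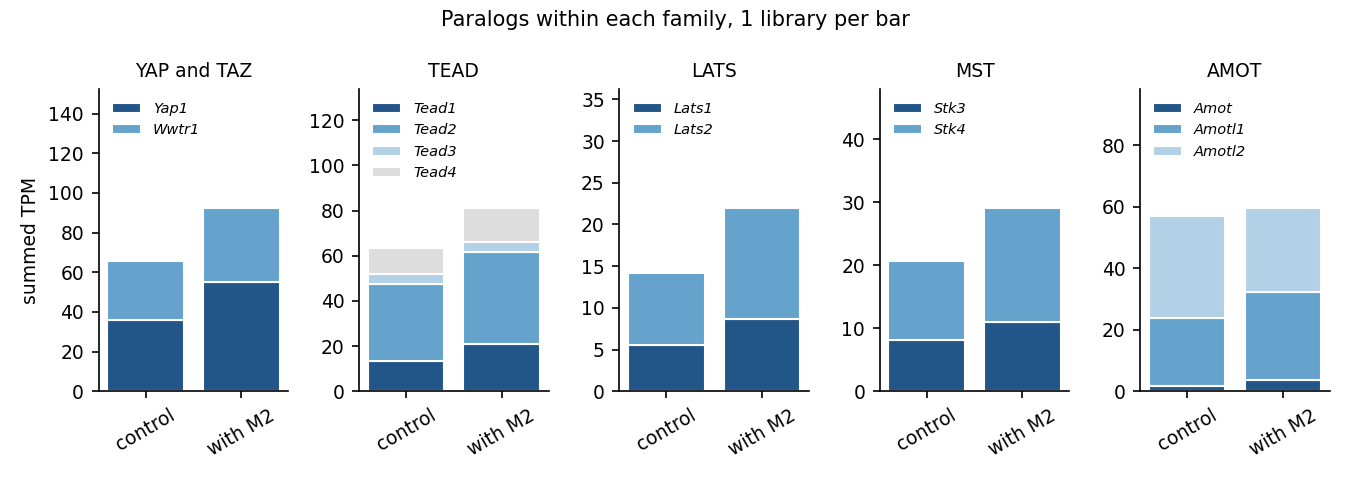
Summed TPM (vertical, from 0, each panel with its own scale) of the paralogs in each family, 1 bar per library and 1 shade per gene. The YAP and TAZ, TEAD, LATS and MST sums are higher with M2 macrophages, and the AMOT sum is 57.2 TPM in control cells and 59.6 TPM with macrophages with Amotl2 a smaller part of it.

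Amotl2, a junction-associated angiomotin that binds and retains YAP and is a YAP target, was the exception among the 10. Amotl2 (ENSMUSG00000032531, chromosome 9, 102716672 to 102733418) had 33.4 TPM in control cells and 27.2 TPM with macrophages, a log2 ratio of -0.29, and 15.9% of detected genes had a lower ratio. Its paralog Amotl1 had 22.1 TPM and 28.6 TPM, and Amot had 1.62 TPM and 3.79 TPM. The order of Amotl1 and Amotl2 was thus opposite in the libraries: Amotl2 stood at 1.51 times Amotl1 in the control and at 0.95 times in co-culture. The summed level of the angiomotin genes in co-culture was 1.04 times that of the control, and the share of Amotl2 was 58.5% in the control and 45.6% in co-culture.

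The other target genes did not differ by a common amount. Cyr61, which encodes a secreted integrin-binding matricellular protein (ENSMUSG00000028195, chromosome 3, 145646976 to 145649981), had 60.8 TPM in control cells and 102 TPM with macrophages. Its log2 ratio of 0.73 was the largest of the 10, and 88.3% of detected genes had a lower one. Ankrd1, which encodes an ankyrin repeat protein of the nucleus and the muscle sarcomere (ENSMUSG00000024803, chromosome 19, 36111961 to 36120099), had 70.9 TPM and 77.4 TPM, a log2 ratio of 0.12. Ctgf, which encodes a secreted relative of Cyr61 (ENSMUSG00000019997, chromosome 10, 24595442 to 24598683), had 3.71 TPM and 4.13 TPM, also a log2 ratio of 0.12. With TPM as deposited Ankrd1 and Ctgf lay below the median of all detected genes, with 46.4% and 46.3% of these having a lower ratio. With trends on transcript length and GC content removed they lay above that median, at 0.26 and 0.23. Their ratios changed sign with the TMM factor, to -0.09 and -0.05.

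The levels of these targets were far apart within each library. Cyr61 was 16.4 times as high as Ctgf in the control and 24.6 times in co-culture, although both are textbook YAP targets. Ankrd1 was 19.1 times as high as Ctgf in the control and 18.7 times in co-culture. Ankrd1 ranked first and Cyr61 second of the 10 in the control, and this order was opposite in co-culture, where Cyr61 stood at 1.31 times Ankrd1. By level, 87.4% of detected genes had a lower mean TPM than Cyr61, 86.1% a lower one than Ankrd1, and 18.1% a lower one than Ctgf.

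**Figure D3:**
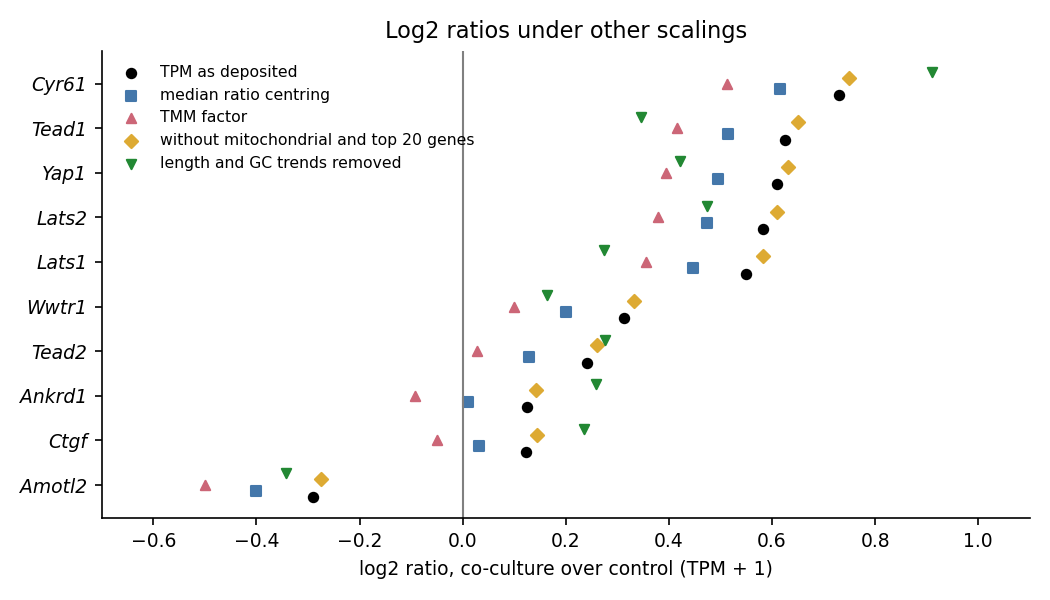
Log2 ratio of co-culture to control (horizontal, TPM + 1) of each of the 10 genes with TPM as deposited and with other scalings or corrections, 1 marker for each. Cyr61 lies between 0.51 and 0.91 and Amotl2 is below 0 throughout. Ankrd1 lies between -0.09 and 0.26 and Ctgf between -0.05 and 0.23, and both are below 0 with the TMM factor.

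The order of the 10 ratios was read again with transcript length and GC content taken into account. When trends on both were removed and the median over all genes was kept, a correction added after the data were seen, Lats1 was at 0.27, Tead1 at 0.35, Yap1 at 0.42, Lats2 at 0.47 and Wwtr1 at 0.16. The longest annotated transcript is 9964 bases for Tead1 and 7209 for Lats1, against 2019 for Cyr61 and 2020 for Ankrd1. Tead4 was at 0.44, above Tead1, so the order of the TEAD ratios depended on this correction. The ratios of the short genes were larger after the correction, at 0.91 for Cyr61, 0.26 for Ankrd1 and 0.23 for Ctgf. Ankrd1 and Ctgf then lay above the median of all detected genes, which was kept at 0.17. The median of the 10 was then 0.28, against 0.43 without the correction. No gene of the 10 reached 2-fold with it.

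Most listed genes of the kinase cascade and its regulators, not all of which act upstream of LATS, had slightly higher values in co-culture. All 19 were detected and 18 had higher values, which is 94.7% against 64.5% of all detected genes. None differed by 2-fold on the TPM + 1 scale, against 7.09%, and the median was 0.39, against 0.17. In TPM itself Taok2 was 2.02 times as high in co-culture. With the TMM factor, where the median of all detected genes was -0.03, 15 of the 19 had higher values. The MST kinase genes Stk3 and Stk4 had log2 ratios of 0.39 and 0.49. The largest ratios were those of Taok2 (0.93), which went from 7.74 TPM to 15.7 TPM, and Taok1 (0.73), both genes of TAO kinases that phosphorylate MST, and of the LATS cofactor gene Mob1b (0.61). With length and GC trends removed Taok2 was at 0.83, Taok1 at 0.39 and Mob1b at 0.27, and the latter pair then lay below Stk38 (0.51) and Sav1 (0.49). Map4k4, a kinase gene acting beside MST, had the highest level, at 61.0 TPM in control cells and 77.0 TPM with macrophages. Stk38l, a LATS relative, was the single gene with a lower value, at 3.35 TPM and 2.59 TPM.

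Cofactors and restraints of YAP, TAZ or TEAD, listed with LIM protein genes and the other TEAD genes, gave a similar picture with exceptions. Of 15 listed, 11 were detected, and 2 of these were lower and 9 higher in co-culture, which is 81.8% against 64.5% of all detected genes. None differed by 2-fold on the TPM + 1 scale, against 7.09%, and the median was 0.32, against 0.17. In TPM itself Amot, at 1.62 TPM and 3.79 TPM, was 2.34 times as high in co-culture. Amot (0.87) and Vgll4 (0.85), whose product competes with YAP for TEAD, had the largest ratios, followed by Limd1, a LATS-binding LIM protein gene, at 0.43. Vgll4 had 15.9 TPM in control cells and 29.5 TPM with macrophages. Amotl1 was at 0.36, Tead4 at 0.36 and Tead3 at 0.02. The focal adhesion gene Zyx, the most abundant, had 255 TPM and 245 TPM. The LIM protein gene Ajuba, which also belongs to the target list below, had 84.1 TPM and 64.9 TPM. Vgll1, Vgll2 and Wtip were listed at 0 in both libraries, and Vgll3 was at 0.01 TPM in the control and listed at 0 in co-culture.

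Among other genes known as YAP and TAZ targets 15 of 22 were detected, 12 with higher and 3 with lower values, and their median was 0.28. The share with higher values was 80.0%, against 64.5% of all detected genes. With the TMM factor, where the median of all detected genes was -0.03, 9 of the 15 were higher. Gadd45a alone differed by 2-fold on the TPM + 1 scale, a share near the 7.09% of all detected genes. It encodes a growth arrest and DNA damage protein that is also induced by p53 and by ATF4, and had 65.6 TPM in control cells and 8.92 TPM with macrophages, a log2 ratio of -2.75. Among the largest ratios above 0 were those of Nt5e, the ectonucleotidase gene (0.95), and Birc5 (0.63), which encodes survivin and is also a mitotic gene. In TPM itself Nt5e, at 3.50 TPM and 7.70 TPM, was 2.20 times as high in co-culture. Axl, a receptor tyrosine kinase gene, was the most abundant, at 402 TPM in control cells and 424 TPM with macrophages. The list shares Ajuba and Ptpn14 with the one before it.

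**Figure D4:**
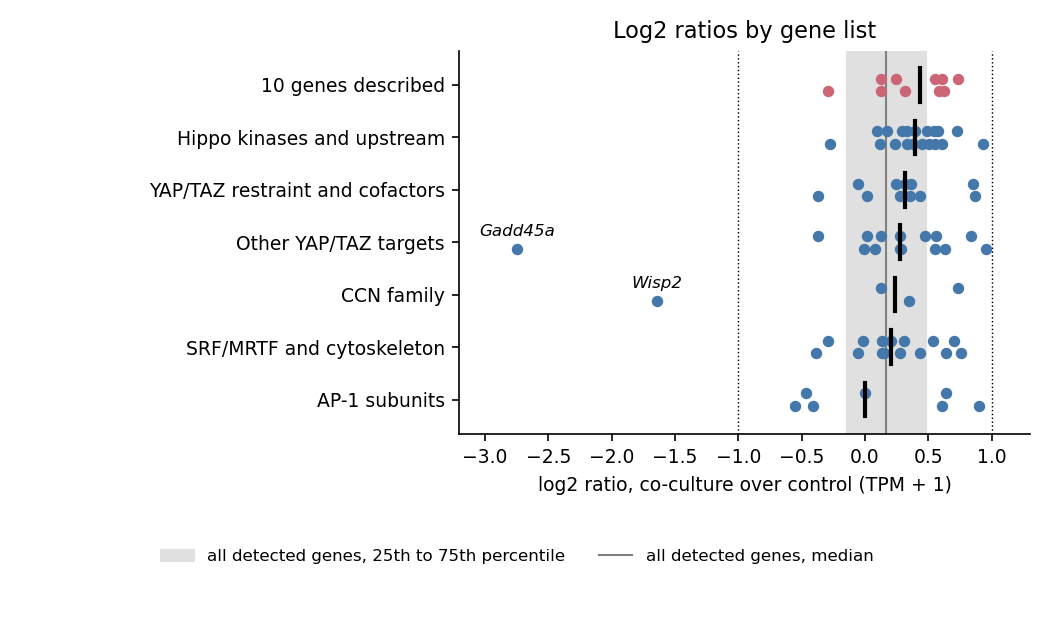
Log2 ratio of co-culture to control (horizontal, TPM + 1) of each detected gene, 1 point per gene, for the 10 genes and 6 related lists; black bars are list medians, the grey band and line are the 25th to 75th percentile and the median of all detected genes, and dotted lines mark 2-fold. Only Gadd45a and Wisp2 lie beyond a dotted line, and most points of the first rows lie to the right of the grey line at 0.17.

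In the CCN family, the matricellular proteins to which Cyr61 and Ctgf belong, 4 of 6 genes were detected. Of these, 3 had higher values in co-culture and 1, Wisp2, a lower one, while 64.5% of all detected genes had higher values. Wisp2 alone differed by 2-fold, as 7.09% of all detected genes did, and 4 genes are too few to set the family apart from these shares. Wisp2 (Ccn5) had 3.43 TPM in control cells and 0.42 TPM with macrophages, a log2 ratio of -1.64 that no longer reached 2-fold with a pseudocount of 5. Wisp1 (Ccn4) had 1.96 TPM and 2.77 TPM. Cyr61 was the most abundant of the family in both libraries.

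Cyr61, Ctgf and Ankrd1 are also known to respond to SRF with its coactivators MRTF and to AP-1. Of 19 SRF, MRTF and cytoskeletal genes 15 were detected, 11 with higher and 4 with lower values, with a median of 0.20. None was past 2-fold, against 7.09% of all detected genes. Both the share of higher values (73.3%) and the median were close to those of all detected genes (64.5% and 0.17). With the TMM factor 7 were higher and the median was -0.02, beside -0.03 for all detected genes. Vcl (vinculin) had 42.9 TPM in control cells and 73.2 TPM with macrophages, and the log2 ratio was 0.70 for Srf and 0.64 for Actb. Filip1l had 11128 TPM and 13746 TPM. It overlaps Cmss1 on the opposite strand (1447 TPM and 1997 TPM), and without stated strandedness reads of the pair cannot be told apart. All 7 AP-1 subunit genes were detected, 3 higher and 4 lower, which is 42.9% higher against 64.5% of all detected genes. Their median was 0.00, against 0.17, and none differed by 2-fold on the TPM + 1 scale, against 7.09%. Jun had 28.8 TPM and 54.7 TPM (0.90), and Junb had a ratio of 0.61. Fosb was at 0.64 but near the detection limit, with 0.75 TPM and 1.73 TPM, which is 2.31 times in TPM itself. Jund, the most abundant, had 286 TPM and 195 TPM (-0.55).

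Markers of epithelial cells, fibroblasts and macrophages were read beside the labelled cell type. Krt8 and Krt18, keratins of simple epithelium, had 548 TPM and 439 TPM in the control and 630 TPM and 484 TPM in co-culture, while Epcam was listed at 0 in both and Cdh1 was at or below 0.04 TPM. Krt19 had 0.18 TPM and 2.64 TPM, a log2 ratio of 1.63. Of 20 macrophage markers 12 were at 0 in both libraries, among them Adgre1, Ptprc and Itgam, and only Cd68 and Cd14 were detected. Cd68, a lysosomal protein gene, was at 57.7 TPM and 27.8 TPM, a log2 ratio of -1.03, and Cd14 was at 8.87 TPM and 12.4 TPM. The summed level of all 20 was 66.7 TPM and 40.7 TPM. The other 18 summed to 0.08 TPM in control cells and 0.54 TPM with macrophages. Cd68 and Cd14 were both present in the control library, whose label names no macrophages, and Cd68 was higher there. Which cells these transcripts came from was not tested. In bulk RNA, fewer cells of a type and less RNA per cell cannot be told apart.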

How the data were processed

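The authors deposited 1 table of TPM values, with 1 column per library and values rounded to 2 decimals. HISAT2 2.1.0, RSEM 1.2.31 and GRCm38.p5 are named, per the submitters' processing notes, without their roles. For annotation and strandedness the sources used here state nothing. TPM keeps no depth, so depth is unknown and no intervals were computed. Of 52796 rows, the 51912 with Ensembl identifiers were used, 51633 of which matched a GENCODE M21 symbol, and 884 assembled loci were left out. Coordinates are from GENCODE M21 (GRCm38), 1-based.

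Log2 ratios used a pseudocount of 1, detection a mean of at least 1 TPM, and 2-fold a log2 ratio of 1 or -1. Scalings, thresholds and pseudocounts were varied. Lowess trends (span 0.3) on length and GC content of the longest transcript were removed with statsmodels 0.14.6 for 11246 detected genes. The calculations were tested on simulated data. The members and lists were chosen with earlier results of these data known. Of each list, genes past 2-fold, the 3 largest ratios, the most abundant gene and paralogs of the 10 genes were named. Stk38l, Ajuba, Wisp1, Wtip, Vgll1 to Vgll3 and the overlapping genes were named after their values were seen. A gene that this rule selects is not reported here.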

Additional observations from a re-analysis of the deposited data

How the results depend on the processing

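With 1 library per group no value has an error, and depth is unknown. No paired analysis was possible because each group had 1 library. A median counted as moved when it differed by 0.1 or more. None of the 10 genes reached 2-fold under any alternative at that threshold; at 1.5-fold 3 were higher. The cause of the differences below was not tested.

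The median of the 10 genes was 0.32 with a pseudocount of 5, 0.32 after median ratio centring, 0.23 by the TMM factor and 0.28 with length and GC trends removed. With the TMM factor Ankrd1 was at -0.092 and Ctgf at -0.051. For the genes of the Hippo kinase cascade and its regulators the median was 0.29 with centring and 0.19 with the TMM factor. For the restraint and cofactor genes it was 0.20 and 0.10, for other targets 0.17 and 0.066, for SRF and cytoskeletal genes 0.087 and -0.017, and for AP-1 genes -0.12 and -0.22. The AP-1 median was 0.017 with rescaling without mitochondrial and top genes, 0.18 with trends removed, and its mean was 0.10. Other targets had a mean of 0.13 and a median of 0.14 with trends removed. The CCN median was 0.11 with a pseudocount of 5, 0.033 with no minimum TPM, 0.73 with a minimum of 10 (Cyr61 alone), 0.070 with the TMM factor, and its mean was -0.11.

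With a pseudocount of 0.1, 1 gene was 2-fold higher in each of the Hippo, restraint, other target and AP-1 lists. So was 1 other target with the rescaling, beside 649 of all detected genes, and 1 restraint gene (Vgll4) with trends removed, beside 521. At 1.5-fold 3 of 19 detected Hippo, 2 of 11 restraint and 3 of 15 other target genes were higher. So were 1 of 4 CCN, 3 of 15 SRF and 3 of 7 AP-1 genes, against 18.6% of all detected genes. The count of CCN genes 2-fold lower was 0 with a pseudocount of 5, with a minimum of 10 TPM and at 4-fold. Over all genes, higher and lower numbered 199 and 129 with a pseudocount of 5, 244 and 120 with a minimum of 10 TPM, 321 and 379 with the TMM factor, 2099 and 717 at 1.5-fold and 75 and 66 at 4-fold. With a pseudocount of 0.1, 886 of the 11258 detected genes were higher.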

Other observations

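The nearest detected protein-coding genes on either side of the 10 genes were looked up after the data were seen. These 20 neighbours had a median log2 ratio of 0.15, with 14 higher, 6 lower and none past 2-fold, near the median of 0.17 and the 64.5% with higher values among all detected genes. The range was -0.56 to 0.90. Next to Yap1, Birc3 was at 0.40 and Cfap300, at only 1.80 TPM and 3.26 TPM, at 0.61, beside 0.61 for Yap1 itself. Next to Lats1, at 0.55, Pcmt1 was at 0.02 and Katna1 at 0.01. Next to Cyr61, Znhit6 was at -0.28 and Ddah1 at 0.43. Next to Wwtr1, the tetraspanin-like gene Tm4sf1 had 178 TPM in control cells and 332 TPM with macrophages, the highest ratio of the neighbours.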
